A study of Talpa occidentalis and Mus musculus with 35 samples.

Results

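The HOX gene clusters of the Iberian mole, Talpa occidentalis, were described from the gene models annotated on talOcc3, an assembly of its genome. A locus was counted as a HOX locus where its gene name, without a copy number or a low-confidence mark, was HOX followed by A, B, C or D and a number. The rule found 31 loci of 30 symbols among 23336 annotated loci, where the mouse has 39 Hox genes. HOXA held 11 of its 11 genes and HOXD 9 of its 9, HOXC held 7 symbols of 9 at 8 loci, and HOXB held 3 of 10. For HOXB1, HOXB2, HOXB3, HOXB4, HOXB5, HOXB6, HOXB8, HOXC5 and HOXC10 no locus was analysed here.

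The series consisted of 35 libraries of polyadenylated RNA from mole and mouse gonads in 16 groups, collected to find genes that act in the formation of the ovotestis, the gonad of female moles that carries ovarian and testicular tissue. At embryonic day 15 the wild-type moles gave 2 libraries of ovotestis and 2 of testis. Later the ovotestis was divided into its ovarian and its testicular part, and these parts and the testis gave 3 libraries each at postnatal day 7 and 2 each in adults. Ovaries labelled as mutant for Fgf9, with the allele not named, and ovaries labelled wild type on the B6 background were sampled at embryonic day 13.5 with 2 libraries each; the strain labels of these 4 libraries run from C57BL/6 to C57BL/9. Wild-type CD1 mouse ovaries and testes were sampled at embryonic day 13.5, at postnatal day 7 and at 10 weeks, again with 2 libraries each. The annotation carried no value per library, so expression in these groups was not analysed here, library depth is unknown, and the values below describe gene models, which have no replicates.

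HOX genes encode transcription factors that bind DNA through the homeodomain and give cells their position along the body axis. In mammals they stand in 4 clusters that arose by duplication of an ancestral cluster, and within a cluster all genes are transcribed in the same direction and, in the embryo, are switched on in the order in which they lie. Genes of low number act towards the head and genes of high number towards the tail, the limb ends and the urogenital tract, and in mice Hoxa9 to Hoxa13 pattern the ducts that become oviduct, uterus and vagina.

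The homeobox, the stretch of 180 coding bases for the homeodomain, lay within the last coding exon in all 39 mouse genes. It is shown for the 5 genes whose mole models in the clusters were aligned to fewer than 300 bases of the named reference transcript, because those models rest on about the length of this exon. The sequences are of the mouse, from GENCODE M21, and no mole sequence was used here. The 12 bases in capitals are the codons for the residues W, F, Q and N, in which the tryptophan is residue 48 of the 60 residues.
Hoxa4 (GRCm38 chr6:52190483-52190662, minus strand): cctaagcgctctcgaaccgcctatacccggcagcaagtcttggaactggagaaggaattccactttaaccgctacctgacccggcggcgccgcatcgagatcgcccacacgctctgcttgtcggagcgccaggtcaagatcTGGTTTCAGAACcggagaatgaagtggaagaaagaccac
Hoxc9 (GRCm38 chr15:102983930-102984109, plus strand): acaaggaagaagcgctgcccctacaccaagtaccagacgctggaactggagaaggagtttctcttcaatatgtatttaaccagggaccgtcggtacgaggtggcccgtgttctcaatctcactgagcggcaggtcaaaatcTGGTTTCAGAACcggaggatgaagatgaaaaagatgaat
Hoxc12 (GRCm38 chr15:102938308-102938487, plus strand): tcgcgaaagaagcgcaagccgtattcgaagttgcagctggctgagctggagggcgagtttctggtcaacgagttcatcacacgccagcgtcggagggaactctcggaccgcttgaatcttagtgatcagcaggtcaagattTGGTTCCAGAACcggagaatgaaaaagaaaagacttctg
Hoxc13 (GRCm38 chr15:102927210-102927389, plus strand): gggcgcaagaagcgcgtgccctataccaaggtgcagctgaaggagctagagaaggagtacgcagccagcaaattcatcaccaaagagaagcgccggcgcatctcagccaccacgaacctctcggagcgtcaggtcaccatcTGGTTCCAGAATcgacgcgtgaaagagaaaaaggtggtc
Hoxd11 (GRCm38 chr2:74683917-74684096, plus strand): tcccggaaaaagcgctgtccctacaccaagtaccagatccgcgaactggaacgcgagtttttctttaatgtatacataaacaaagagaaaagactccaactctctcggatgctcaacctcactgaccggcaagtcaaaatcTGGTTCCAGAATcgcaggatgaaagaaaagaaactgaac
The 5 homeoboxes were identical at between 51.7% (Hoxa4 and Hoxc13) and 70.6% (Hoxc9 and Hoxd11) of their positions. Among all 39 mouse homeoboxes, the most similar other homeobox belonged to the same paralog group, the genes that share a number across clusters, in 33 genes, of which Hoxb8 was equally similar to a gene of another group. The highest identity of any pair was 93.9%, between Hoxa3 and Hoxb3.

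On the scaffold that held each cluster, the HOX loci kept the order of their numbers and lay on the same strand; the second HOXC12 locus, on scaffold 8481, is outside this count. Neighbouring HOX loci were on the same strand in 26 of 26 pairs, against 52.2% of neighbouring loci over the whole annotation. The HOXA loci were part of a run of 12 loci on the same strand, together with SKAP2, and 0.253% of 12239 such runs in the annotation were as long. The run that held HOXD had 11 loci, with 0.351% of runs as long. The run that held HOXC had 7 loci, with 2.17% as long, and that of HOXB had 6, with 3.48% as long.

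HOXA lay on the minus strand of scaffold 17 with no other locus inside, and its stretch from HOXA2 to HOXA13 occupied positions 16998029 to 17098699. This stretch had a coding span of 101 kb in the mole and 97.9 kb in the mouse, where it lies on chromosome 6 from 52162886 to 52260774 (GRCm38, minus strand). HOXD lay on scaffold 1 from 50707764 to 50805846 on the plus strand, also with no other locus inside. It spanned 98.1 kb in the mole and 96.1 kb in the mouse, on chromosome 2 from 74668310 to 74764389. The coding span in the mole was thus 1.03 times that of the mouse for this stretch of HOXA and 1.02 times for HOXD. Both ratios include the extent of the models at the edges. The HOXD13 coding span was 6.63 kb in the mole and 1.83 kb in the mouse, and that of HOXA13 2.70 kb and 1.87 kb. Whether the clusters themselves differ in length was not tested.

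HOXC lay on scaffold 34 from 13194273 to 13429781 on the plus strand and was the longest cluster of the mole annotation, with a coding span of 191 kb against 115 kb for the same genes in the mouse on chromosome 15. A single intron of HOXC13 accounted for 83067 bases of it. HOXC13 is known for its role in hair and nail formation, and its model had a first coding part of 156 bases at 13194273 to 13194428, followed by parts of 31 and 233 bases that ended at 13280795. The mouse intron was 5251 bases long. Without that first part the HOXC coding span was 107 kb in the mole.

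HOXB lay on scaffold 28 on the plus strand with 3 loci. HOXB13, which acts in the prostate, lay from 5600171 to 5602177, HOXB9 from 5659016 to 5662250 and HOXB7 from 5673096 to 5675864. The span from HOXB13 to HOXB7 was 75.7 kb in the mole and 95.2 kb in the mouse, where the whole cluster of 10 genes covers 173 kb of chromosome 11. The other locus between the outermost HOX loci of any cluster was an unnamed model with 2 exons and 601 coding bases at 5652831 to 5653465, between HOXB13 and HOXB9.

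**Figure D1:**
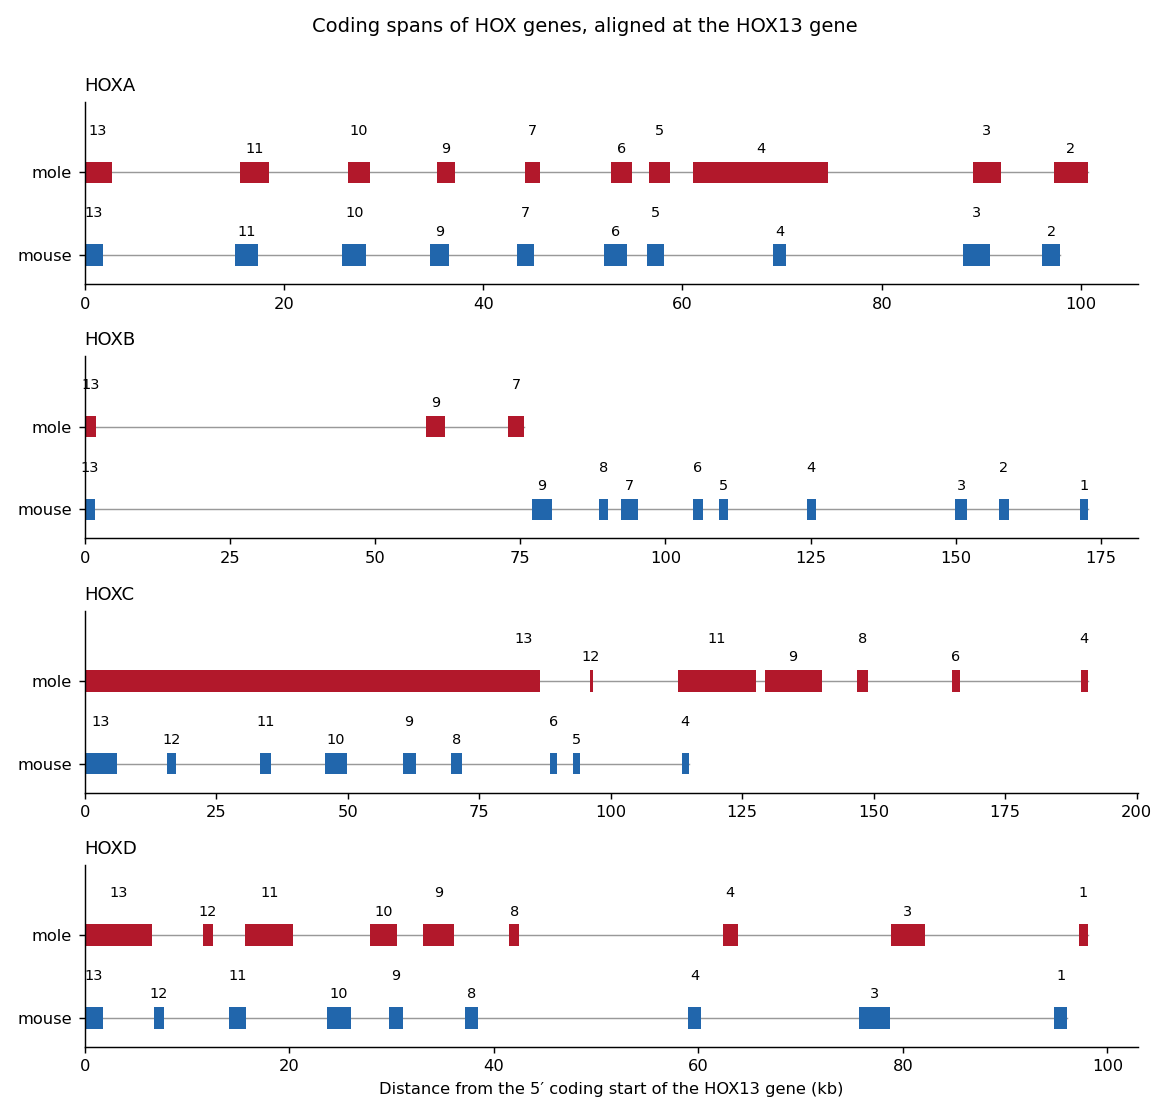
Coding spans of the reported HOX genes of each cluster in the mole (red, above) and the mouse (blue, below), drawn from the 5′ coding start of the HOX13 gene; the horizontal axis is distance in kb, with its own range for each cluster, and numbers name the genes. HOXA and HOXD have nearly the same layout in both species, HOXB ends at HOXB7 in the mole, and HOXC is shifted by the 83067-base intron of HOXC13.

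Gaps between neighbouring HOX genes were close to those of the mouse. Measured between coding spans, the gap in the mole was a median of 0.96 times the gap between the same genes in the mouse over 26 pairs, and it was between 0.8 and 1.25 times the mouse gap in 20 of them. By gene lines, neighbouring HOX loci lay a median of 6.84 kb apart, against 16.3 kb for neighbouring loci over the whole annotation. The gap between HOXD13 and HOXD12, both active in the developing digits, was 4.94 kb in the mole and 4.95 kb in the mouse. HOXA6 and HOXA7, which act in the trunk, were 7.10 kb apart in the mole and 7.09 kb in the mouse. The long gap between HOXD8 and HOXD4, where the mouse has no Hox gene either, was 19.9 kb in the mole and 20.5 kb in the mouse.

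The 6 pairs outside that range all had a shorter gap in the mole. The gap between HOXC11 and HOXC9 was 1.61 kb in the mole and 25.0 kb in the mouse, where Hoxc10 lies in it. The gap between HOXA4 and HOXA5 was 2.34 kb in the mole and 10.9 kb in the mouse. HOXD12 and HOXD11 lay 3.17 kb apart in the mole and 6.34 kb apart in the mouse. The last 3 pairs named each contain a model labelled ALN, HOXC11 and HOXC9, HOXA4 and HOXD11. Such models made up 8 of the 31 HOX loci, 25.8%, against 10.3% of all loci.

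The distance between the 3′ coding ends of neighbouring genes, which does not depend on where a model begins, was a median of 0.98 times that of the mouse. It does depend on where a model ends, and ranged from 0.45 times (HOXC11 and HOXC9) to 1.72 times (HOXC12 and HOXC11) the mouse distance. For HOXD12 and HOXD11 it was 7.87 kb in the mole and 8.09 kb in the mouse, so that the shorter gap of this pair lay on the side where the HOXD11 model begins. The HOXA4 model had a last coding exon of 11 bases, against 347 in the mouse. The distance from its 3′ coding end to that of HOXA5 was 15.9 kb in the mole and 12.2 kb in the mouse. Mole HOXB13 and HOXB9, the widest pair, were 60.1 kb apart by this measure, against 78.6 kb in the mouse.

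**Figure D2:**
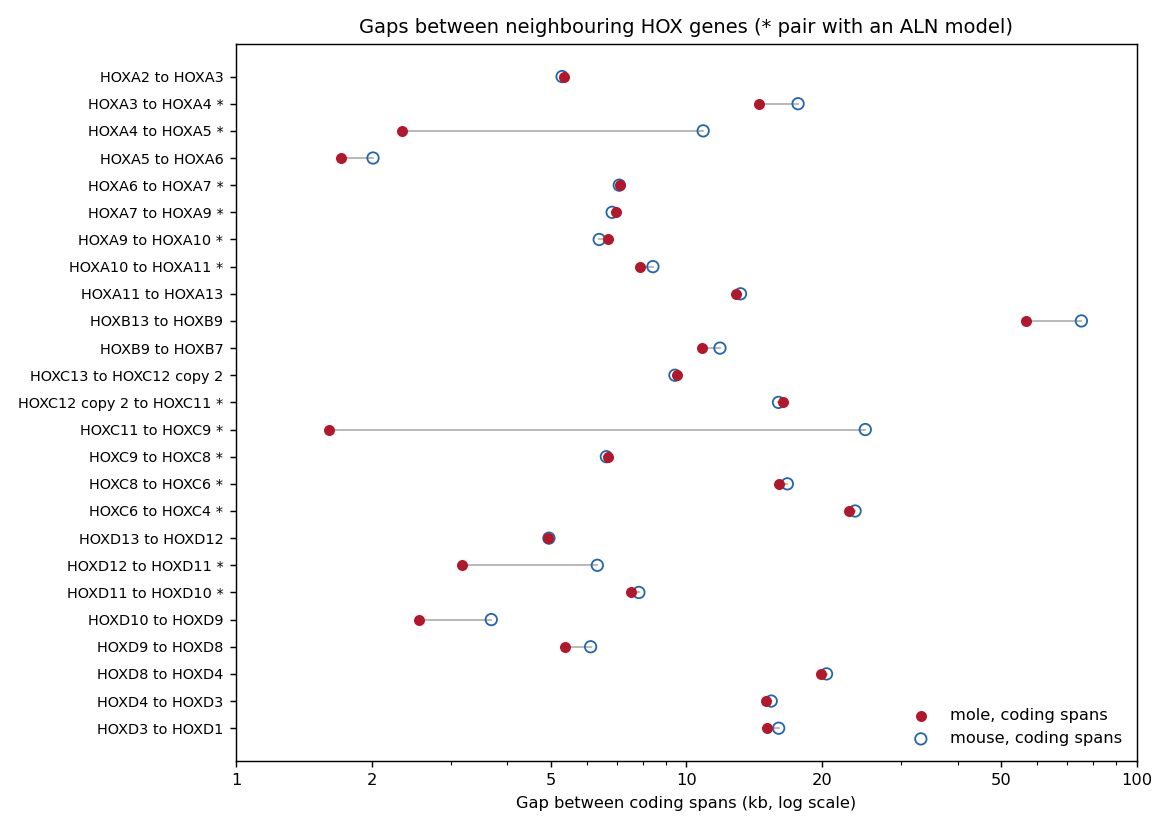
Gap between the coding spans of neighbouring HOX genes in kb on a log scale, in the mole (filled red) and between the same genes in the mouse (open blue), with 1 row per reported pair and a star where the pair includes a model labelled ALN. Most circles coincide; the pairs HOXC11 to HOXC9, HOXA4 to HOXA5 and HOXD12 to HOXD11 lie well below the mouse value.

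For HOXB8 and HOXC5 the interval that holds the gene in the mouse had nearly the mouse length in the mole. HOXB9 and HOXB7, the neighbours of Hoxb8 in the mouse, were 10.8 kb apart in the mole and 11.9 kb in the mouse. HOXC6 and HOXC4, on either side of Hoxc5 in the mouse, were 23.0 kb apart in the mole and 23.7 kb in the mouse by coding spans. Neither interval contained another locus.

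The interval of Hoxc10 was different, and the models on both sides of it, HOXC11 and HOXC9, had longer coding spans than the mouse genes. Hoxc10 and Hoxc11 act in the lumbar spinal cord and hindlimb. The mole HOXC11 model had 4 coding parts over 14876 bases, and the last, 275 bases long, began 14601 bases after the start of the model. In the mouse, the last coding exon of Hoxc11 is 233 bases long and ends 2176 bases after its start, whereas the last coding exon of Hoxc10 is 278 bases long and ends 16550 bases after the start of Hoxc11. The HOXC9 model likewise had 7 exons over 10823 bases. Whether these parts belong to HOXC10 was not tested.

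Beyond HOXB7 there were 355 kb without a locus analysed here, up to SKAP1. The mouse has Hoxb6, Hoxb5, Hoxb4, Hoxb3, Hoxb2 and Hoxb1 there, with 5499 coding bases together, and its interval from Hoxb7 to Skap1 is 175 kb long. The mole SKAP1 model, for an adaptor protein of T cells, spanned 52.9 kb against 289 kb of coding span in the mouse. From HOXB7 to SNX11, the locus after SKAP1, the distance was 418 kb in the mole and 479 kb in the mouse, 0.873 times as long. In the later mole assembly MPIMG_talOcc4v2.1, used here for names and order only, the 6 protein-coding loci between HOXB7 and SKAP1 were HOXB6 to HOXB1. That assembly named 39 HOX genes, with 0 other protein-coding loci inside any cluster. In its HOXC cluster HOXC4 was listed between HOXC6 and HOXC5, out of the order of the numbers, and the reason was not tested.

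The genes for which no locus was analysed here belonged to paralog groups 1 to 6, 8 and 10. Every gene of groups 7, 9, 11, 12 and 13 had a locus, with 4 of 4 in group 9 and 4 of 4 in group 13. Group 5 had 1 of 3, which was HOXA5, a gene needed for the airways in mice. Group 2 had 1 of 2, and groups 1, 3, 6, 8 and 10 had 2 of 3 each. Group 4 had 3 of 4, HOXA4, HOXC4 and HOXD4.

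HOXC12, a gene of the posterior body, was the symbol with more than 1 locus. The locus inside the cluster, at 13290318 to 13290686, was a single exon of 369 coding bases aligned to bases 672 to 908 of the reference transcript, and it reached 74.1% of the highest score of that symbol. The other locus took up bases 1 to 270 of scaffold 8481, where it was the sole locus, and was aligned to bases 63 to 332 of the same transcript. The aligned parts did not overlap, and together the loci had 639 coding bases against 843 in the mouse. Among the 31 loci, 30 had the highest score of their symbol, against 76.1% of all loci with a score. Every symbol has a locus at its highest score, so with 30 symbols this count was fixed and does not measure model quality. The share over all loci likewise depends on the number of loci per symbol. The meaning of the score is not stated in the annotation.

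A HOX gene typically has 2 coding exons, the second with the homeobox. Models of exactly 2 exons made up 13 of the 31 HOX loci, 41.9%, against 8.7% of all loci, while 16 had more and 2 had 1. In the mouse 38 of the 39 Hox genes had 2 coding exons, and Hoxa13 had 5 parts that became 2 once parts under 60 bases apart were joined. In the 13 mole models of 2 exons the intron was a median of 0.996 times the mouse intron, from 0.88 (HOXA6) to 1.23 (HOXB13).

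The last coding exon matched the mouse within 6 bases in 12 of the 13 models with 2 exons and in 6 of the 16 with more. HOXA6 had a last exon of 260 bases in both species, within 699 coding bases in both. HOXC8, a gene of the thoracic vertebrae and ribs, lay at 13341105 to 13343175 with a last exon of 293 bases in both and 729 coding bases in both. HOXD12, at 50719334 to 50720294, had a last exon of 239 bases in both and an intron of 148 bases in the mole against 159 bases in the mouse. These models differed from the mouse genes by 6 coding bases or fewer.

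Models with further exons were spread along HOXA and HOXD and also occurred in HOXC, while the HOXB models had 2 exons each. HOXA2, HOXA3, HOXD3 and HOXD4 had 3 exons each, HOXA7 and HOXD11 had 5 each, and HOXC9 had 7. HOXA13, needed for digits and the genital tubercle, lay at 17095997 to 17098699 and had 3 exons with a last exon of 245 bases in both species, but 813 coding bases in the mole against 1152 in the mouse. HOXD13, the digit gene at the end of its cluster, lay at 50707764 to 50714396 and had 6 exons and 1413 coding bases in the mole against 1020 in the mouse, with a last exon of 251 bases in both. HOXA11, which acts in the uterus and forearm, had 3 exons and 1086 coding bases in the mole against 942 in the mouse, and an intron of 1426 bases against 1418. HOXA10, also a uterine gene, had 5 exons and 1116 coding bases in the mole against 1251 in the mouse.

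In the 5 short alignments inside the clusters, the aligned reference stretch was between 54 bases shorter than the last coding exon of the mouse gene and equal to it. It was 236 bases in HOXD11, whose last mouse coding exon is 236 bases long. It was 242 bases in HOXC9 against 245, and 237 bases in the HOXC12 locus of the cluster against 239. It was 231 bases in HOXC13 against 257, and 293 bases in HOXA4 against 347. The short alignment outside the clusters, the HOXC12 locus of scaffold 8481, covered 270 bases near the start of the transcript. In HOXC9, HOXA4, HOXD11 and HOXD13 the aligned stretch was under 50% of the coding bases of the model, which is 4 of 31 loci or 12.9%, against 11.4% of all loci with an aligned stretch.

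Coding length ranged widely around that of the mouse. The median HOX model had 100% of the coding bases of the mouse gene, from 32.0% for the HOXC12 locus on scaffold 8481 to 141% for HOXA5. HOXC13 had 42.6% and HOXD1, which acts in pain-sensing neurons of mice, had 48.9%. HOXD11 had 55.8% and HOXD8 65.9%. At the other end, HOXD13 had 139% and HOXC9 134%. Of the 31 models, 27 had a coding length divisible by 3, which is 87.1%, against 87.8% of all loci; the exceptions were HOXA9, HOXC4, HOXC6 and HOXD10.

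**Figure D3:**
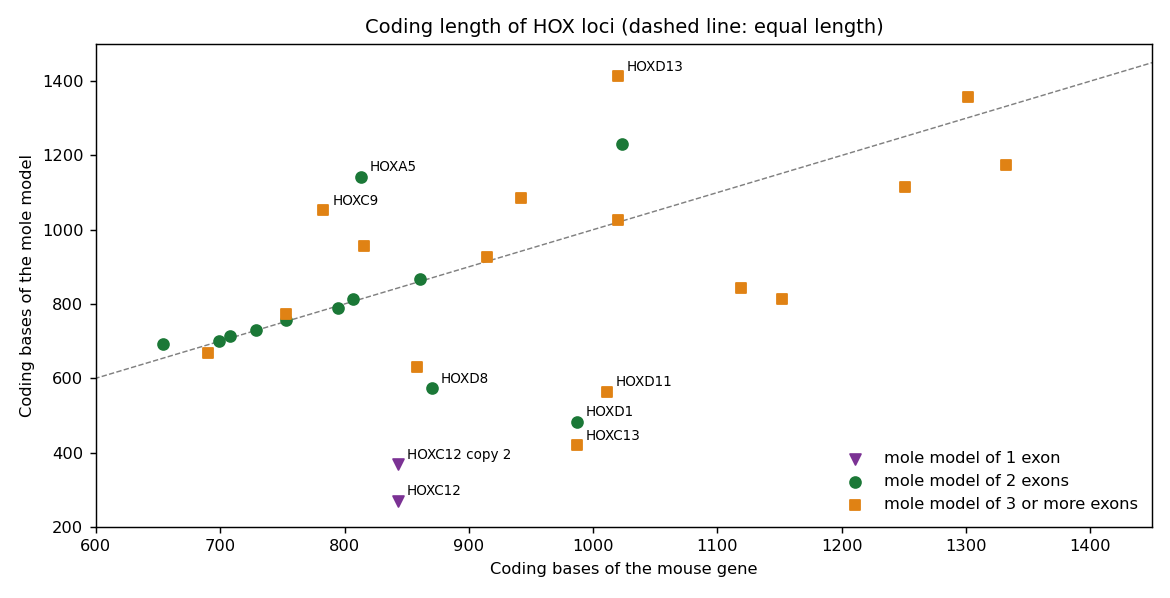
Coding bases of the reported mole HOX models against those of the mouse gene of the same name, with marker shape and colour for the number of exons in the mole model and a dashed line at equal length. Names are given where the mole model has under 70% or over 130% of the mouse length; both single-exon points are HOXC12, far below the line.

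In talOcc3 the clusters were bordered by the same genes as in the mouse. A locus-free gap of at least 100 kb lay next to 3 of the 8 cluster ends, 37.5%, against 15.2% of all gaps. Without HOXB7, beyond which the mouse has further Hox genes, it was 2 of 7 ends, and by coding spans it was 4 of 8. HOXA13 was 39.1 kb from EVX1, a homeobox gene of spinal interneurons, in the mole and 53.1 kb in the mouse. HOXD1 was 65.0 kb from MTX2, a protein of the mitochondrial outer membrane, in the mole and 61.6 kb in the mouse. HOXD13 was 3.87 kb from EVX2 in the mole and 8.89 kb in the mouse. The HOXD13 coding span itself was 6.63 kb in the mole and 1.83 kb in the mouse, and the mole EVX2 model was labelled ALN. What the extent of these models adds to the difference was not tested.

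HOXB13 was 34.5 kb from TTLL6, an enzyme that modifies tubulin, in the mole and 35.5 kb in the mouse. HOXC4 was 112 kb from SMUG1, a DNA repair enzyme, in the mole and 119.7 kb in the mouse by coding spans; the gene line of HOXC4 ran on to 13429781 and left 67.2 kb. HOXC13 was 103 kb from CALCOCO1 in the mole and 201 kb in the mouse, and 186 kb without the first coding part of the HOXC13 model. In the mouse no coding gene lies in 7 of these 8 intervals, the exception being that of HOXB7 and SKAP1. The later mole assembly listed LOC119248415, and not CALCOCO1, next to HOXC13. At the other cluster ends it listed the neighbours named here.

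**Figure D4:**
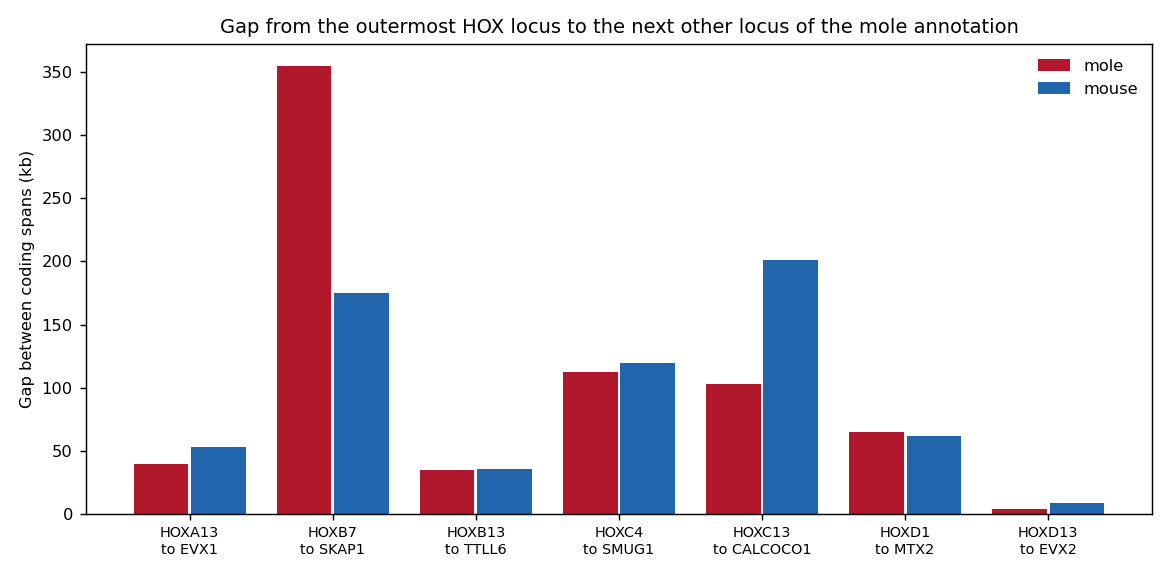
Gap in kb from the outermost HOX loci to the next other locus of the mole annotation, between coding spans, at 7 of the 8 cluster ends, in the mole (red) and between the same genes in the mouse (blue). The widest differences are a longer gap in the mole from HOXB7 to SKAP1, 355 kb against 175 kb, and a shorter one from HOXC13 to CALCOCO1, 103 kb against 201 kb.

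In mice, enhancers that drive Hoxd genes in limbs, digits and genitalia lie in gene-poor stretches on both sides of the cluster, and HOXD had long locus-free stretches on both sides in the mole. Between MTX2 and the locus HNRNPA3_copy2 lay 746 kb without a locus (scaffold 1, 50921716 to 51668003), against 783 kb between Mtx2 and Hnrnpa3 in the mouse, and 1.25% of all gaps in the mole annotation were as wide. On the side of HOXD13, beyond EVX2 and LNPK, 524 kb without a locus separated LNPK from ATP5G3 (50042858 to 50566461), against 611 kb in the mouse. As wide were 2.35% of all gaps. HOXA had smaller stretches, 266 kb between SNX10 and SKAP2 in the mole against 271 kb in the mouse, and 219 kb between EVX1 and HIBADH in the mole against 229.8 kb in the mouse. In the later assembly 0 protein-coding loci lay between MTX2 and HNRNPA3 and 0 between LNPK and the gene named ATP5G3 in talOcc3.

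Because the clusters arose by duplication, their neighbours include related genes, and these kept their side. Among the flanking genes, 9 families by name had 23 members beside more than 1 cluster, and all 9 lay on the same side of every cluster they flank. The NFE2 family of transcription factors stood on the side of the low numbers at all 4 clusters, with NFE2L3 at HOXA, NFE2L1 465 kb from HOXB, NFE2 159 kb from HOXC and NFE2L2 871 kb from HOXD. Members of the CBX family of chromatin proteins, the HNRNPA family of RNA-binding proteins, and the SKAP, SNX and COPZ families stood on that side too.

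EVX1 at HOXA and EVX2 at HOXD stood on the side of the high numbers, as did CALCOCO2 at HOXB and CALCOCO1 at HOXC. The ATP5G genes, which encode a subunit of ATP synthase, stood there at HOXB, HOXC and HOXD. Orientation relative to the HOX genes was the same within 8 of the 9 families, the exception being CBX, in which CBX1 alone points the same way as the HOX genes. In the mouse all 23 members had the orientation they have in the mole. Of the 34 flanking genes listed from the mouse and human arrangement, 33 had a locus, and PRAC1 was the exception. Each of the 33 had at least 1 locus on a scaffold with a cluster. UBE2Z, with 3 loci, also had a locus on scaffold 400, and HNRNPA3, with 5 loci, also had a locus on scaffold 16, which hold no cluster. The other loci among the 3 nearest on a side were ATF7, beyond ATP5G2 at HOXC, and FTH1_copy7, a single-exon model inside HIBADH at HOXA. HIBADH, CBX3, CALCOCO2, UBE2Z, HNRNPA1, ATP5G2 and HNRNPA3 had more than 1 locus. For HIBADH, CBX3 and CALCOCO2 just 1 locus each had more than 1 exon.

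Loci of genes that work with HOX proteins were counted in the same way. Of the 9 TALE homeodomain cofactors, which bind DNA together with HOX proteins, 8 had exactly 1 locus each, among them MEIS1 to MEIS3, PKNOX1 and PKNOX2, and for PBX4 none was analysed here. All 15 listed regulators of HOX genes had a locus, and of these KMT2D, a histone methyltransferase, had 4 and EED, a Polycomb protein, had 3. Of the EED loci 1 had more than 1 exon, and the next score was 25.5% of the highest. All 4 KMT2D loci had more than 1 exon, the next score was 97.6% of the highest, and 1 model had 56.3% of the mouse coding length. Whether these loci are separate gene copies was not tested. Of the 8 related homeobox genes, GSX1, GSX2, PDX1, GBX2 and EN2 had 1 locus each, and no locus was analysed here for MNX1, GBX1 and EN1. Exactly 1 locus was found for 13 of the 15 regulators, 86.7%, against 85.4% of the 16209 symbols of the whole annotation.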

How the data were processed

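The deposited file was the gene annotation of the mole assembly talOcc3, for a series of 35 RNA libraries; STAR 2.6.1d and the build mm9 are listed in the submitters' processing notes, and their role is not stated there. The file held 0 columns of per-sample values, so no expression test was possible. Start and end positions were used as deposited, 1-based. Transcript lines carried a model score as deposited, together with the highest score of the symbol. The labels EVM, exonerate and ALN are those of the file, which does not state how the models were built.

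Gene lines, transcript lines and coding parts were linked with Python 3.11.15. Because some gene names stand on several lines, transcripts were matched by name, scaffold, strand and position. The steps were tested on simulated data. Main positions were gene lines; comparisons with the mouse used coding spans in both species. Mouse genes were those of GENCODE M21 (GRCm38), each by its longest coding transcript, CCDS-tagged ones first, with the stop codon included. No coordinate was converted between builds. Gaps of all loci were taken between loci that do not overlap. Homeoboxes were located by the residues WFQN in the translated mouse transcripts.

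The named genes were all HOX loci, the expected genes without a locus, the 3 nearest other loci on each side, loci inside a cluster, and list members with 0 or several loci. Members, lists and flanking families were chosen with earlier results of these data known, and a few genes that the rule names are not reported here. Some further genes were named from the lists after their values were seen. No statistical test was made, because an annotation has no replicates.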

Additional observations from a re-analysis of the deposited data

How the results depend on the processing

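Of 135 values recomputed under alternatives, 123 stayed within 1.5 times the main value and 113 were identical; the 12 others are given here. The number of loci per cluster, their order, strand and exon numbers all stayed within that range. Part of this was fixed in advance, because positions by transcript lines or coding parts leave out no locus. A limit of 50% of the highest score kept all 31 loci, of which 30 had the highest score of their symbol by construction. By transcript lines or by coding parts, the median gap of HOXC was 12.8 kb against 6.87 kb by gene lines, and the gap from HOXC4 to SMUG1 112 kb against 67.2 kb, because the HOXC6 and HOXC4 gene lines extend beyond their coding parts. Taking the gap to the nearest locus of any kind gave medians of 3.08 kb for HOXA against 5.29 kb, 10.8 kb for HOXB against 33.8 kb, and 3.87 kb for HOXD against 6.45 kb; by construction it takes the smaller side. Leaving out coding parts beyond an intron of over 10 kb, an alternative chosen after seeing the data, shortened HOXC to 152 kb against 236 kb by gene lines and to 107 kb by coding parts, and the gap from HOXC13 to CALCOCO1 became 186 kb in both cases. The 3′ coding ends and the omission of pairs with an ALN model were also chosen after seeing the data and gave median ratios to the mouse of 0.98 and 0.94. No paired analysis was possible because gene models, not libraries, were compared.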

Other observations

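The ParaHox cluster, a relative of the HOX clusters whose genes act in the gut, pancreas and forebrain, was kept on scaffold 6. CDX2 lay at 49145081 to 49147769, and PDX1, which is needed for the pancreas, lay 28.8 kb away in the mole and 27.0 kb away in the mouse. GSX1, which acts in the forebrain, lay 89.3 kb beyond PDX1 in the mole and 80.1 kb in the mouse. In both species 0 other loci lay between these 3 genes. The retinoic acid receptors, which bind a signal that switches on HOX genes of low number, stood on scaffolds with clusters in 2 cases. RARG was 471 kb from HOXC13 in the mole and 669 kb in the mouse. The mole distance ran to the first coding part of the HOXC13 model, which lies beyond its 83067-base intron. In between were 18 loci in the mole, with ESPL1 and ESPL1_copy2 counted separately, and 18 coding genes in the mouse. RARA was 2378 kb from HOXB7 in the mole and 2661 kb in the mouse. These genes were singled out after their positions were seen.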
